A study of Mus musculus with 12 samples.

Results

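The cytosolic and mitochondrial heat shock proteins were followed through the hypertrophic zone of the growth plate in a pair of mouse models in which a misfolding protein accumulates in the endoplasmic reticulum. The set held 10 genes, namely Hspa1a, Hspa1b, Hspa2, Hspa4, Hspa8, Hsp110 (the array's name for Hsph1), Hspb1, Hspb8, Hspd1 and Hspe1, and its members were all probes that the array annotation gives one of these names. Of the 10 genes, 9 had a probe, and together they had 19 of the 41174 probes on the array, which carries 27962 gene names. No probe was named Hspa1b, and this gene was covered only by 2 of the 4 probes named Hspa1a, whose listed transcripts belong to both genes.

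Tibial hypertrophic zones were microdissected from 14 day old mice, 1 tibia from each of 3 mice in each of 4 groups. Schmid mice were homozygous for Col10a1 p.Asn617Lys, a knock-in change in collagen X, the collagen that hypertrophic chondrocytes make. Cog mice carried ColXTgcog, in which collagen X gene sequences drive a misfolding thyroglobulin in the same cells, and mice with different numbers of transgene copies were not told apart. Each mutant had wildtype littermates as its own control, named wildtype (Schmid background) and wildtype (Cog background). RNA was amplified in 2 rounds and each mouse had its own single-colour array, so that 12 arrays stand for 12 mice.

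Heat shock proteins are chaperones that bind unfolded protein in the cytosol, nucleus or mitochondria. HSP70 proteins bind exposed stretches of a client and release it with the help of nucleotide exchange factors, small heat shock proteins hold clients until an HSP70 takes over, and HSP60 with its lid HSP10 encloses proteins inside mitochondria. Their stress-inducible genes are classically switched on by the heat shock factor Hsf1, which binds heat shock elements made of inverted GAA units. The endoplasmic reticulum has its own chaperones and its own unfolded protein response, so the question these genes address is whether chaperones outside that compartment also changed when the misfolded protein was inside it.

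Promoter sequence from RefSeq (GRCm38.p6, 250 bases before to 50 after a gene's start) was available for 9 of the 10 genes, and Hspa8 had no entry. A pair of inverted units, spelled GAANNTTC or TTCNNGAA, which read the same on both strands, was found for 7 of these 9 genes (Hspa1a, Hspa1b, Hspb1, Hspb8, Hspd1, Hspe1 and Hsph1) and not for Hspa2 or Hspa4. Of the 27025 genes with a promoter entry, 17% held such a pair. A run of 3 units that turn in alternate directions, with 2 bases between neighbours, was found for Hspd1, Hspe1 and Hsph1, against 0.662% of all genes. The ER stress response element, CCAAT and CCACG with 9 bases between them, was found on either strand for 0 of the 9 genes, against 0.137% of all genes, and the amino acid response element TGATGNAA on either strand for 0 of the 9, against 4.51%. These are matches of letters in a short window, and a window without a match says nothing of binding elsewhere. Shown, with the inverted units in capitals, are the 250 bases before the start of the inducible HSP70 gene Hspa1a and of Hspb1. Also shown are 30 bases upstream of Hspe1, which lie within the annotated span of the oppositely oriented Hspd1.
Hspa1a, chr17:34972157-34972406, minus strand: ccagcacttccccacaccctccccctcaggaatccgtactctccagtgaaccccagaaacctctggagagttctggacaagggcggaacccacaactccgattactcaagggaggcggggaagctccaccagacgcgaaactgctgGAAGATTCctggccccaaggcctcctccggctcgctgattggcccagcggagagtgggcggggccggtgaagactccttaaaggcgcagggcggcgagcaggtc
Hspb1, chr5:135887669-135887918, plus strand: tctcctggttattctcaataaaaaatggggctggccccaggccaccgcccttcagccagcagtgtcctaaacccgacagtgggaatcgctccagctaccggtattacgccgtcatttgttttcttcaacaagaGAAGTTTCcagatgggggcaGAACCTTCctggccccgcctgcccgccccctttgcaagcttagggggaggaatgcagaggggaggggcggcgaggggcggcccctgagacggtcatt
Hspe1, chr1:55088053-55088082, plus strand: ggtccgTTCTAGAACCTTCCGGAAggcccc

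Counted from the annotated start of the gene, the pair in Hspa1a begins at base -104, those in Hspb1 at -117 and -97, and the run in the 30-base stretch at -89 from Hspe1. Read on the other strand, that run begins at base -144 from a start of Hspd1. RefSeq gives Hspd1 a pair of promoter windows. The window of Hspe1 overlaps window 2 of Hspd1, which holds the run, by 285 bases, and window 1, which holds no pair of units, by 4 bases. Hspa1a and Hspa1b lie 10120 bases apart on chromosome 17, and over 300 bases their windows differ at 4 positions, counted from 1 at the 5′ end of the window with the base of Hspa1a first: C44T, T47C, T249G and C276T. On GRCm38.p6 the set lies on 6 chromosomes, with Hspd1 at chr1:55077833-55088243 and Hspe1, whose span overlaps that of Hspd1 by 96 bases, at chr1:55088148-55091317, Hsph1 at chr5:149616843-149636498, Hspb1 at chr5:135887919-135889563, Hspb8 at chr5:116408491-116422864, Hspa8 at chr9:40801276-40805202, Hspa4 at chr11:53259814-53300479, Hspa2 at chr12:76403812-76406938 and Hspa1a at chr17:34969359-34972156. The pair of units in Hspa1a is the same in Hspa1b. In Hspb8 the only match, GAAGTTTC, begins at base 3 after the start. Hsph1 has a pair of promoter windows. Its run TTCTGGAAAGTTC begins at base 37 in window 1 and at base 16 in window 2. A further pair of units in Hsph1, TTCTCGAA, lies before the start, at -33 in window 1 and -54 in window 2.

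Levels are given as log2 of the background-corrected, quantile-normalized intensity, which has no absolute unit and does not compare between probes. A call needed an adjusted p no higher than 0.05 from limma with Benjamini-Hochberg adjustment over all 41174 probes, together with a change of at least 2-fold in either direction. Unless another fit, set of controls or test is named, p-values below are from that fit, with 3 mice in each group. Errors on levels are SDs. Where a gene had several probes, they are numbered by brightness and the brightest, probe 1, stands for the gene. Of the 19 probes, 9 were well above background on all 12 arrays, 4 were so on no array of some group, and none was saturated. In RNA of a whole microdissected zone, a change in the number of cells of a type and a change in RNA per cell cannot be told apart.

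The set was chosen with earlier results of these data known. The paper on these arrays already named Hspa2, Hspa4, Hspb1, Hspb8, Hspd1 and Hsph1 as raised in Schmid and not in Cog. The counts of members given here, and those for the difference between the mutants, are therefore not independent of its calls. In Schmid, 7 of the 9 measured genes rose at their brightest probe and 0 fell. At the level of probes, 11 of 19 were called higher (57.9%), where 5.78% of all probes on the array were called higher, and 0 were called lower, against 4.69% of all probes. The 3 Schmid arrays lay wholly above the 3 wildtype arrays at 12 probes (19.3% of all probes did so) and wholly below at 1 (26.1% of all probes). The median log2 fold change was 1.43 over the 19 probes and 1.85 over the 9 genes, where it was -0.06 over all probes. In Cog, 0 of 19 probes were called either way, with 1.56% of all probes called higher and 0.748% lower, and the median log2 fold change was 0.14, against -0.00 over all probes. At an unadjusted p under 0.05 limma gave 1 probe higher in Cog, that of Hsp110, and 1 lower in Schmid, the fourth of Hspa1a. Without regard to the test, 15 of 19 probes had a positive value in Cog, and the 3 Cog arrays lay above their wildtype at 1 probe (16.4% of all probes did).

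**Figure D1:**
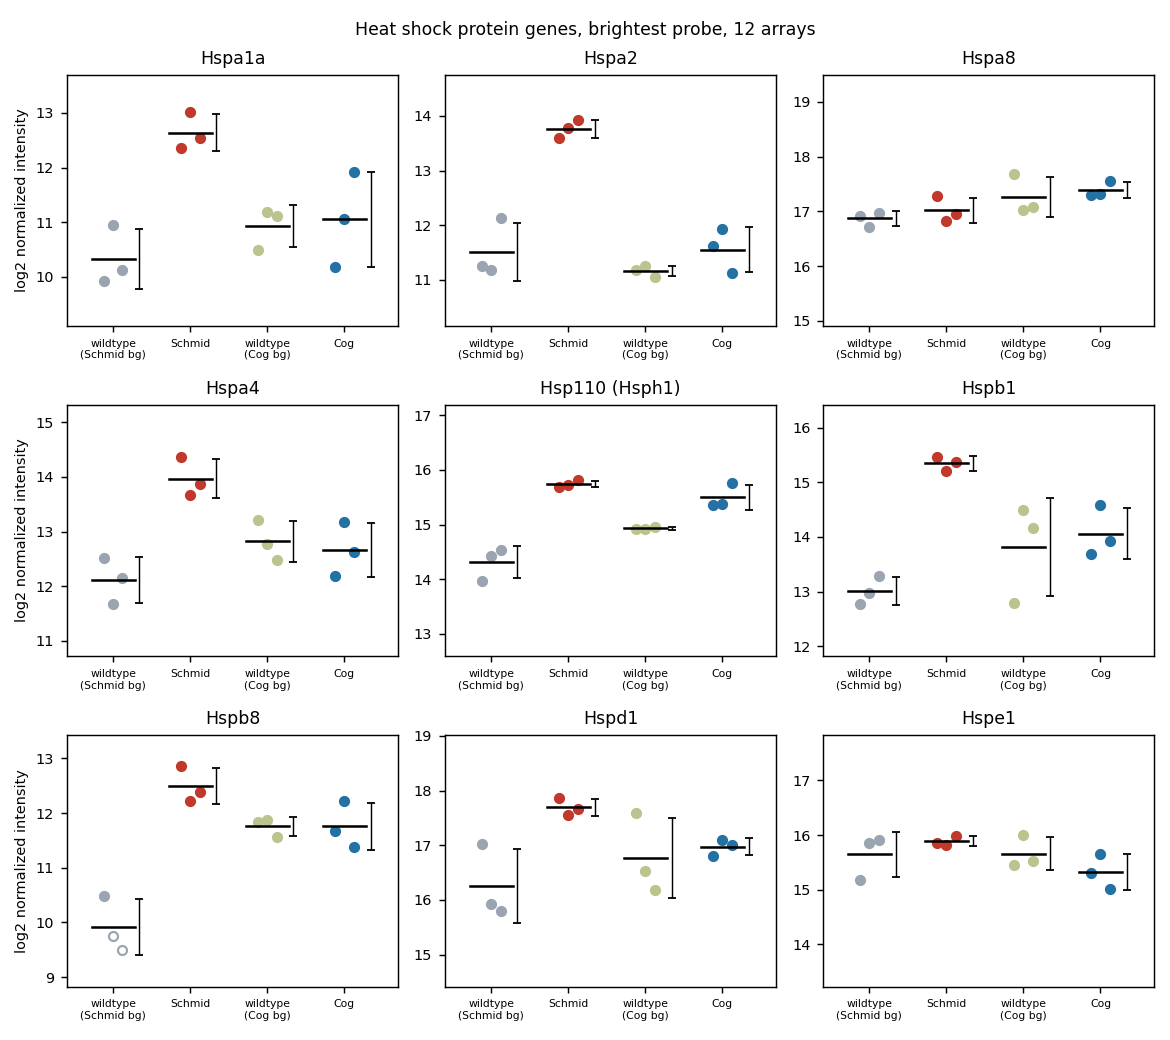
Log2 normalized intensity (vertical axis) of the brightest probe of each of the 9 measured genes on the 12 arrays, by group. Points are mice, open points are spots not well above background, horizontal bars are group means and vertical bars SDs. In Hspa1a, Hspa2, Hspa4, Hsp110, Hspb1, Hspb8 and Hspd1 the 3 Schmid arrays lie above all 3 of their wildtype arrays, while in Hspa8 and Hspe1 they overlap.

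Among the HSP70 proteins, Hspa1a encodes the classical stress-inducible member. Its brightest probe read 12.37, 13.02 and 12.54 on the Schmid arrays and 9.92, 10.94 and 10.12 on their wildtype arrays. It read 10.17, 11.05 and 11.93 in Cog and 10.50, 11.18 and 11.12 in the wildtype of the Cog background. The Schmid arrays stood apart from all 9 others, while the Cog arrays overlapped those of their wildtype, with 1 array below and 1 above all 3 of them. Hspa1a thus rose 4.97-fold in Schmid (log2 fold change 2.31, SE 0.42, adjusted p = 0.00394) and was 1.08-fold in Cog (adjusted p = 0.904, 95% interval of the log2 fold change -0.82 to 1.05). The second probe is offset by 30 bases from it in the array annotation. As each probe has 60 bases, they overlap and are not separate measurements of the gene. The second probe read 11.98, 12.64 and 12.15 in Schmid and 8.88, 10.00 and 8.99 in wildtype, of which only the 10.00 was well above background. It rose 7.82-fold (adjusted p = 0.00472), and in Cog it was 1.11-fold (adjusted p = 0.91), with arrays from 9.08 to 11.52.

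The remaining Hspa1a probes, which list transcripts of Hspa1a and Hspa1b alike, did not follow. They are shown because they are the only probes whose annotation lists Hspa1b.
Hspa1a probe 3: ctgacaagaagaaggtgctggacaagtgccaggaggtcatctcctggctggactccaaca
Hspa1a probe 4: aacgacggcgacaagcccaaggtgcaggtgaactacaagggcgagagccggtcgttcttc

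Probe 3 lies 352 bases and probe 4 lies 1760 bases from probe 1, both towards the start of the gene, by the mm7 positions of the array annotation. Probe 3 read 9.74, 10.12 and 10.05 in Schmid and 9.72, 9.94 and 9.91 in wildtype, a 1.08-fold difference with overlapping groups (adjusted p = 0.744). No Schmid array had probe 4 well above background, and it was at least 1.45-fold lower there than in wildtype, with measured means of 9.15 and 9.72 (adjusted p = 0.0362), which is short of the 2-fold threshold. The rise of Hspa1a therefore rests on the 2 overlapping probes nearest the end of the gene, and Hspa1b was not measured apart from Hspa1a.

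**Figure D2:**
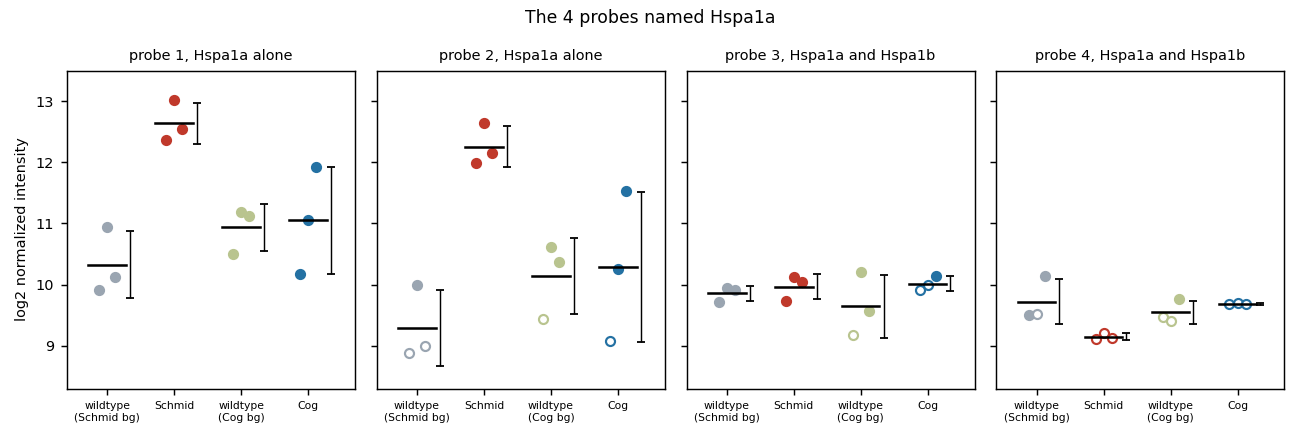
Log2 normalized intensity of the 4 probes named Hspa1a on the 12 arrays, on a shared vertical axis, with points, means and SDs as above and open points for spots not well above background. Schmid is above every other array at probes 1 and 2, overlaps wildtype at probe 3 (1.08-fold) and is below its wildtype at probe 4.

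Hspa2, an HSP70 best known from developing sperm, stood clear of every other array in Schmid. Its brightest probe read 13.60, 13.77 and 13.92 in Schmid and between 11.06 and 12.13 on the other 9 arrays. The rise in Schmid was 4.75-fold (log2 fold change 2.25, SE 0.26, adjusted p = 0.000461), while Cog, at 11.62, 11.93 and 11.12, overlapped its wildtype (1.31-fold, adjusted p = 0.433). The second Hspa2 probe read 10.61, 10.66 and 10.65 in Schmid and 9.54, 9.67 and 9.57 in wildtype, where 1 array was well above background. It rose 2.06-fold (adjusted p = 0.0138), close to the threshold. Hspa2 was 1 of the 2 genes without a heat shock element pair in its promoter window.

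Hspa8 encodes the constitutive HSP70 of the cytosol and was among the genes that were not called. The brightest probe read 17.28, 16.82 and 16.95 in Schmid and 16.92, 16.72 and 16.98 in wildtype, and in Cog 17.29, 17.31 and 17.56 against 17.68, 17.03 and 17.08. Each mutant overlapped its own wildtype. The Schmid fold change was 1.10 (adjusted p = 0.606, 95% interval of the log2 fold change -0.28 to 0.56), and that in Cog was 1.09 (adjusted p = 0.746). Its dimmer probe was 1.87-fold in Schmid with overlapping groups (adjusted p = 0.0993). The array annotation places both Hspa8 probes on chromosome 5 in mm7, whereas RefSeq places the gene on chromosome 9.

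The nucleotide exchange factors that reload HSP70, Hspa4 (HSP70RY, an HSP110 relative) and Hsp110, both rose in Schmid. Hspa4 read 14.36, 13.68 and 13.87 in Schmid and 12.52, 11.68 and 12.14 in wildtype, a 3.61-fold rise (log2 fold change 1.85, SE 0.31, adjusted p = 0.00244). In Cog it was at 12.20, 13.17 and 12.62 against 13.21, 12.77 and 12.48, which overlap (fold change -1.12, adjusted p = 0.81). A second probe, 2576 bases away, and probe 4 carry accessions that are not RefSeq transcripts, so RefSeq could not assign them to a gene. The array annotation places both on chromosome 11, as it does probe 1. In Cog this second probe was 1.63-fold (adjusted p = 0.508). It rose 3.76-fold in Schmid (adjusted p = 0.0332), and read 14.62, 14.24 and 14.19 against 11.80, 13.06 and 12.46. Of the 12 fits with an array left out, 5 lost this second call, at an adjusted p of 0.101, 0.0724 and 0.0701 without Schmid replicates 1, 2 and 3, and of 0.0777 and 0.0775 without wildtype replicates 1 and 3. Outside Schmid no array had the other Hspa4 probes well above background. Of these, probe 4 was at least 1.14-fold higher in Schmid (means 9.69 and 9.21, adjusted p = 0.0304), and probe 3 overlapped between the groups (means 9.51 and 9.40, adjusted p = 0.541).

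Hsp110, measured by 1 probe, read 15.69, 15.73 and 15.81 in Schmid, 13.97, 14.42 and 14.54 in its wildtype, 15.36, 15.38 and 15.75 in Cog, and 14.92, 14.91 and 14.96 in the wildtype of the Cog background. Schmid lay above its wildtype by 2.69-fold (log2 fold change 1.43, SE 0.16, adjusted p = 0.000364). Hsp110 was also the single gene at which the 3 Cog arrays lay above their wildtype, by 1.48-fold, which did not pass the test (adjusted p = 0.0736, 95% interval of the log2 fold change 0.21 to 0.92).

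The small heat shock proteins Hspb1 (HSP25 in mice) and Hspb8 (HSP22), which hold unfolded clients without using ATP, both rose in Schmid. Against its own wildtype Hspb8 had the highest fold change at a brightest probe, while against all 6 wildtype arrays, as given further on, Hspa2 did. Hspb1 read 15.47, 15.20 and 15.38 in Schmid and 12.77, 12.98 and 13.29 in wildtype, a rise of 5.04-fold (log2 fold change 2.33, SE 0.39, adjusted p = 0.00248). In Cog it read 13.68, 14.58 and 13.92, within the range of 12.79 to 14.48 of its wildtype or just above it (fold change 1.19, adjusted p = 0.758). A second probe named Hspb1 carries an accession that is not a RefSeq transcript and a position on chromosome 13 in mm7, while Hspb1 is on chromosome 5. The fold change of this second probe in Schmid was 1.03 (adjusted p = 0.936).

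Hspb8 read 12.86, 12.23 and 12.39 in Schmid and 10.49, 9.75 and 9.50 in wildtype, and only 1 of these wildtype arrays was well above background. The rise was 5.97-fold (log2 fold change 2.58, SE 0.29, adjusted p = 0.000359). In Cog it read 11.67, 12.22 and 11.38 against 11.84, 11.87 and 11.56, with a log2 fold change of 0.00 (adjusted p = 0.995, 95% interval -0.63 to 0.64). Cog and its wildtype therefore sat above the wildtype of the Schmid background and below Schmid, with the highest Cog array at 12.22 and the lowest Schmid array at 12.23.

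Of the mitochondrial pair, Hspd1 was called in Schmid and Hspe1 was not. Hspd1, the HSP60 chaperonin, read 17.86, 17.56 and 17.66 in Schmid and 17.03, 15.93 and 15.80 in wildtype, a 2.72-fold rise (log2 fold change 1.44, SE 0.38, adjusted p = 0.0207). Its second probe, 634 bases away, read 11.97, 11.64 and 11.75 against 11.22, 9.26 and 9.65 and rose 3.35-fold (adjusted p = 0.0301). The wildtype arrays were uneven at both probes, with replicate 1 highest. The call of probe 1 was lost in 4 of the 12 fits with an array left out, at an adjusted p of 0.0696 and 0.0537 without Schmid replicates 1 and 3, and of 0.0798 and 0.0723 without wildtype replicates 2 and 3. That of probe 2 was lost in 5, those without the same arrays or without Schmid replicate 2 (adjusted p up to 0.115). RefSeq lists 23 pseudogene entries under the name of Hspd1 and 7 under that of Hspe1, and the extent to which their transcripts share probe signal was not tested.

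Hspe1, the HSP10 lid that works with HSP60, read 15.86, 15.82 and 15.99 in Schmid and 15.18, 15.86 and 15.91 in wildtype. The groups overlapped and the fold change was 1.18 (adjusted p = 0.469, 95% interval of the log2 fold change -0.28 to 0.76). In Cog, Hspd1 read 16.80, 17.10 and 17.01 against 17.59, 16.54 and 16.18 in wildtype, within whose range all 3 fell (1.15-fold, adjusted p = 0.8). Hspe1 there read 15.31, 15.66 and 15.01 against 15.46, 16.002 and 15.52, a fold change of -1.26 (adjusted p = 0.453). The difference between the pair was not itself shown. Taken on each array as Hspd1 minus Hspe1, it lay between 1.67 and 2.00 on the log2 scale in Schmid and between -0.12 and 1.85 in wildtype, which overlap (exact two-sided permutation test, p = 0.3, n = 3 and 3, where the smallest possible p is 0.1).

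**Figure D3:**
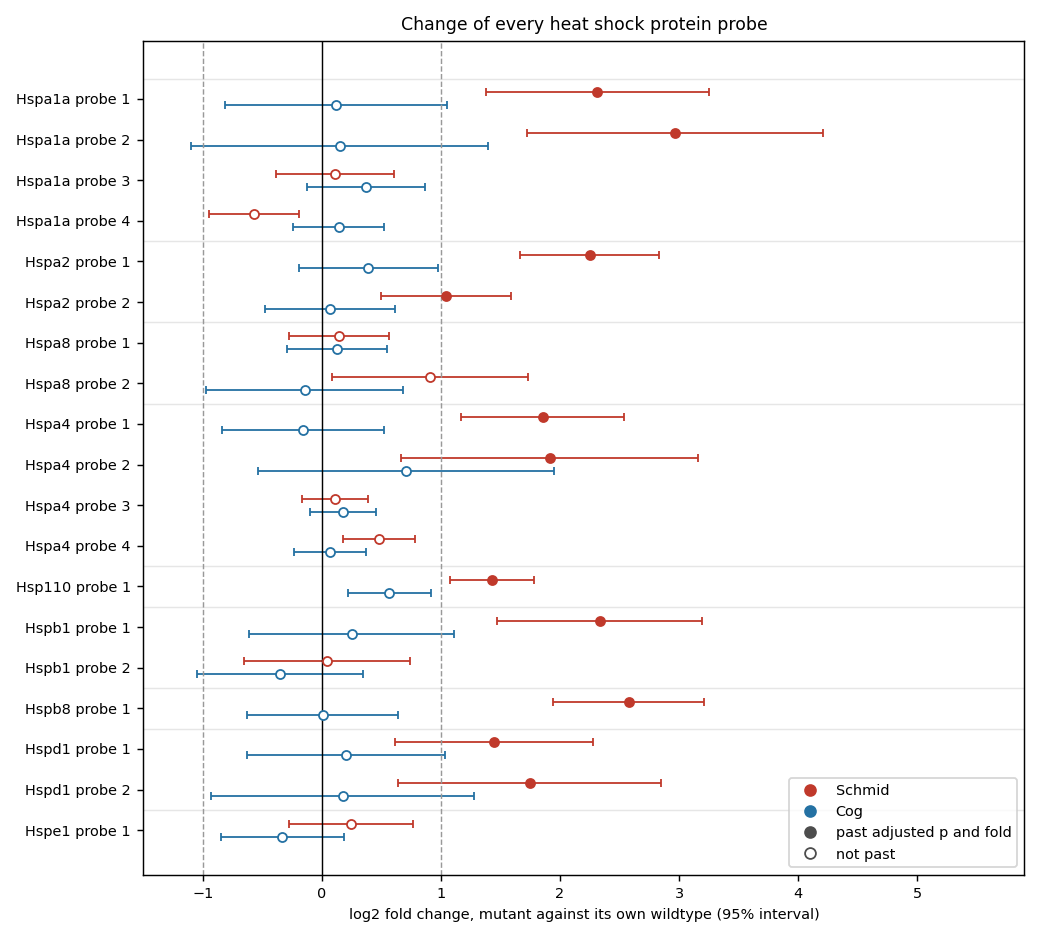
Log2 fold change of each of the 19 probes in Schmid and in Cog against its own wildtype (horizontal axis), with 95% intervals from the limma fit. Filled points pass the adjusted p and the 2-fold threshold (dashed lines), which 11 Schmid probes and 0 Cog probes do. Probes of the same gene are numbered by brightness.

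Whether the change in Schmid differed from that in Cog was tested as the difference of both fold changes in the same fit. Of the 19 probes, 6 had a larger change in Schmid by at least 2-fold and 0 a smaller one, with 4.38% and 5.88% of all probes called that way and 10.3% either way. They belonged to 5 genes. Hspb8 had the largest difference at a brightest probe, 2.57 on the log2 scale (SE 0.40, adjusted p = 0.00288), followed by Hspa1a at 2.20 (adjusted p = 0.0321), Hspb1 at 2.09 (adjusted p = 0.0286), Hspa4 at 2.01 (adjusted p = 0.0125) and Hspa2 at 1.86 (adjusted p = 0.00894). The second Hspa1a probe differed by 2.82 (adjusted p = 0.037). Hspa2, Hspa4 and Hspb8 passed in each of the 12 fits with an array left out, and Hspa1a and Hspb1 did not. Hspa1a kept its call in 4 of these fits, those without wildtype (Schmid background) replicates 1 and 2, Cog replicate 3 or wildtype (Cog background) replicate 1, and reached an adjusted p of 0.0767 in the others. Hspb1 kept it in 4, those without wildtype (Schmid background) replicates 1 and 3, Cog replicate 2 or wildtype (Cog background) replicate 1, and reached 0.0645. The count of 6 probes fell to 3 when any 1 of the Schmid arrays, Cog replicate 1, or wildtype (Cog background) replicate 2 or 3 was left out.

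For the other 4 genes the difference did not pass. Hsp110 differed by 0.86 (adjusted p = 0.0276), which is less than 2-fold, Hspd1 by 1.24 (adjusted p = 0.136), Hspe1 by 0.57 (adjusted p = 0.255) and Hspa8 by 0.02 (adjusted p = 0.974). For Hspd1 the 95% interval ran from 0.06 to 2.42, which leaves out 0 before adjustment but not after it. These differences draw on both wildtype groups, and the wildtype groups were not alike at every member.

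Between wildtypes, Schmid background against Cog background, Hspb8 was the only member called, with a fold change of -3.58 (log2 fold change -1.84, SE 0.29, adjusted p = 0.0204), where 0.236% of all probes were called lower and 0.233% higher. The call was lost in fits without 5 of the 6 wildtype arrays, namely Schmid-background replicates 2 and 3 and each Cog-background replicate, where the adjusted p lay between 0.0562 and 0.0831. Of the 19 probes, 13 were lower in the Schmid background and the 3 arrays lay wholly below at 4 probes, of Hsp110, Hspa8 and Hspb8, and wholly above at 0 (8.64% and 9.52% of all probes). Hsp110 had a fold change of -1.53 between the wildtypes (adjusted p = 0.106).

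Both mutants were therefore also set against all 6 wildtype arrays, a choice made after the values were seen. Hspb8 then stood at 3.15-fold in Schmid in place of 5.97 (adjusted p = 0.00121). Its log2 fold change in Cog became 0.93 in place of 0.00 (adjusted p = 0.0795). Hsp110 was 2.17-fold in Schmid (adjusted p = 0.000419), and for Cog it came to 1.83-fold, an adjusted p of 0.0119 but less than the 2-fold threshold. Hspa1a was 4.03-fold (adjusted p = 0.0033), Hspa2 5.36-fold (adjusted p = 9.92e-05), Hspb1 3.82-fold (adjusted p = 0.00266), Hspa4 2.83-fold (adjusted p = 0.00293) and Hspd1 2.27-fold (adjusted p = 0.0223) in Schmid. With these controls 10 of 19 probes were called higher in Schmid and 0 in Cog, and the probe that dropped out was the second Hspa2 probe, at 1.90-fold.

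**Figure D4:**
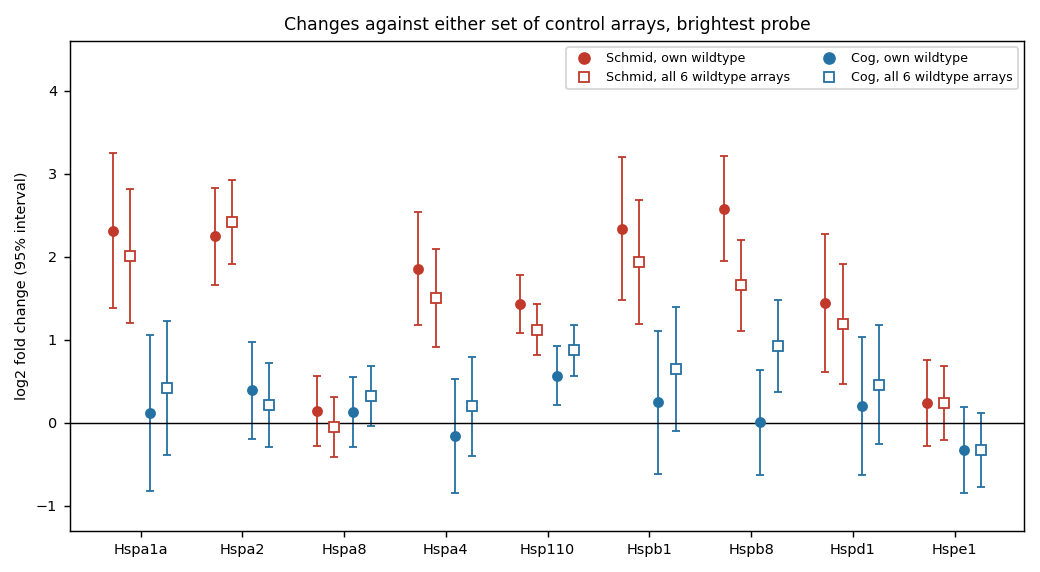
Log2 fold change of the brightest probe of each gene (vertical axis, with 95% intervals) in Schmid and Cog against their own wildtype (filled circles) and against all 6 wildtype arrays (open squares). Hspb8 moves most, in Schmid from 2.58 to 1.66 and in Cog from 0.00 to 0.93. Hspe1 and Hspa8 are called in neither mutant with either control. Against all 6 wildtype arrays they stand at 0.24 and -0.05 in Schmid and at -0.33 and 0.32 in Cog.

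Mutant arrays and the arrays of their wildtype were never on the same slide. Slide and genotype cannot be told apart for either comparison, and there is no value within a slide to give. The Schmid-background wildtype replicate 3 shared a slide with the 3 Cog arrays. On that slide Hspb8 read 9.50 in the wildtype array, where it was not well above background, and from 11.38 to 12.22 in Cog. Spots well above background made up 58.9 to 61.8% on the Schmid arrays and 47.96 to 59.4% on their wildtype arrays, and negative control spots had medians of 202 to 617.5 on the Schmid arrays and 977 to 1894 on the others. The part of these differences in the results was not tested.

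Cell type markers moved in Schmid as well, where 4.69% of all probes were called lower. None of the 6 chondrocyte markers was called. All 6 markers of hypertrophic chondrocytes were well above background on every array, with a median log2 fold change of -1.15. Ihh (-3.55), Pthr1 (-1.20) and Akp2 (-1.11) were called lower, while Col10a1 stood at -0.02. The mean level of the hypertrophic markers was 14.6 to 14.8 across Schmid arrays but 15.6 to 16.6 across wildtype arrays, and 3 of 6 fell. Of the endothelial markers 4 of 7 fell (mean level 9.77 to 10.2 in Schmid, 11.1 to 11.5 in wildtype), and of the red cell markers 3 of 6 (11.05 to 12.01 and 12.9 to 15.2). Osteoclast, osteoblast and myeloid lists had 1 lower call each, of 6, 5 and 8 markers, and the muscle list 0 of 6. These levels were not steady. The median log2 fold change was -1.87 in Schmid and 0.73 in Cog for the myeloid list, and -1.31 and -1.51 for muscle. The mean muscle level was 10.6 to 13.0 in Schmid and 12.6 to 13.8 in its wildtype. It was 10.0 to 10.8 in Cog and 10.3 to 14.2 in its wildtype. Of the endothelial and of the osteoclast markers, 1 each lay near background throughout. In Cog 1 hypertrophic and 1 osteoblast marker fell, where 0.748% of all probes were called lower. The part of these changes in the levels of the heat shock genes was not tested.

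Of 56 further chaperone and heat shock genes on the array, taken as their brightest probes, 9 were called higher and 0 lower in Schmid, with a median log2 fold change of 0.47. Of all probes, 5.78% were called higher and 4.69% lower in Schmid. In Cog 1 of the 56 was higher and 1 lower, with a median of -0.08, where 1.56% of all probes were called higher and 0.748% lower. The calls in Schmid gathered in the list of mitochondrial chaperones and proteases, where 6 of 11 genes rose and 0 fell (median log2 fold change 1.09). The lists, too, were chosen with earlier results known. The share over all probes is of an unlike set. Of the 41174 probes, 12817 were well above background on all 12 arrays, as were 10 of these 11 genes. Hspa9a, the array's name for mitochondrial HSP70, rose 4.87-fold (adjusted p = 0.000451), and was 1.92-fold in Cog, which did not pass (adjusted p = 0.0768). Dnaja3, its J-domain partner, rose 3.80-fold (adjusted p = 0.00167), and Prss15, now Lonp1, the matrix protease Lon, rose 3.54-fold (adjusted p = 0.000198). Their changes were larger in Schmid than in Cog by 2.54-fold (adjusted p = 0.0361), 2.83-fold (adjusted p = 0.0355) and 2.73-fold (adjusted p = 0.0044). With wildtype (Schmid background) replicate 2 left out, 4 of the 11 were called, and with all probes of a gene averaged, 3 were.

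Among HSP70 cochaperones 2 of 11 rose in Schmid, Bag5 (2.66-fold, adjusted p = 0.0126) and Stub1, the ubiquitin ligase CHIP (2.08-fold, adjusted p = 0.00497). Of HSP90 and its cochaperones 1 of 10 rose, Ptges3, the p23 cochaperone (2.17-fold, adjusted p = 0.019). Both counts are small and stand beside 5.78% of all probes called higher in Schmid. None of the 8 subunits of the CCT chaperonin was called in Schmid or Cog, although all 8 had a positive log2 fold change in Schmid, from 0.39 to 1.21. None of 7 other small heat shock proteins was called, with log2 fold changes from -0.75 to 0.57, so among small heat shock proteins the calls in Schmid were those of Hspb1 and Hspb8.

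The regulators of the pathway were not called in either mutant. The Schmid fold change of Hsf1, the heat shock factor, was 1.27 (adjusted p = 0.486) and its Cog fold change -1.61 (adjusted p = 0.29). On no array did Hsf2 stand well above background, so it has no fold change. These are transcript levels, and heat shock factors are regulated in large part as proteins. Among the remaining HSP70 genes the calls in Cog were Stch, now Hspa13, a microsomal HSP70 (2.44-fold, adjusted p = 0.0153), and Hspa12b, expressed in endothelium (fold change -2.21, adjusted p = 0.0285), neither called in Schmid.

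**Figure D5:**
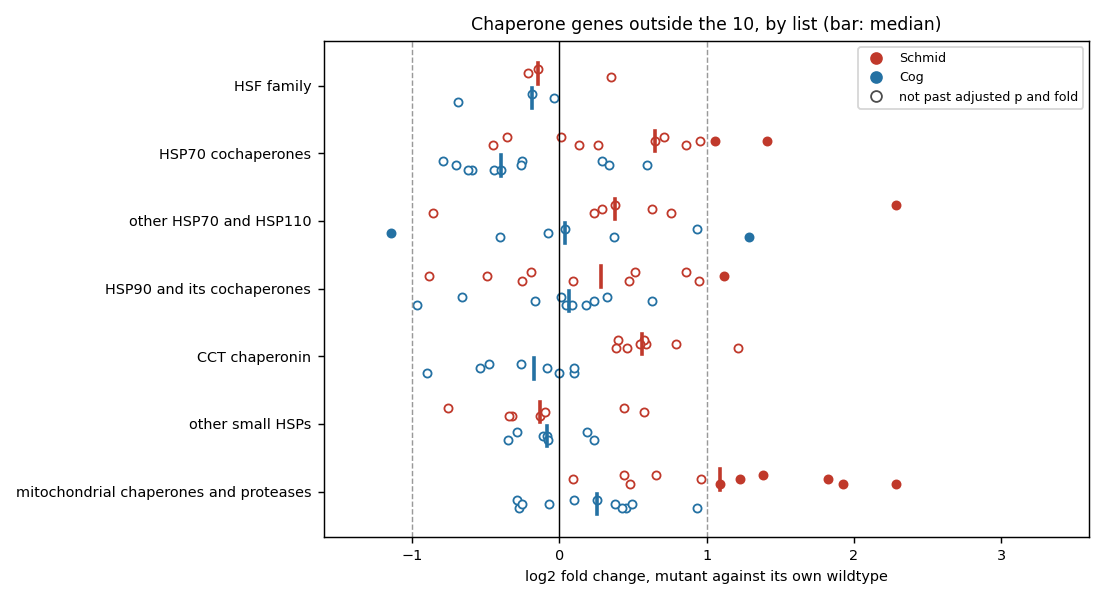
Log2 fold change (horizontal axis) of 56 chaperone and heat shock genes outside the set, by list, in Schmid and in Cog against their own wildtype. Each point is a gene, filled where it passes the adjusted p and the 2-fold threshold (dashed lines), vertical bars are list medians, and Hspa9a stands in 2 lists. Filled Schmid points gather in the list of mitochondrial chaperones and proteases, 6 of 11.

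Over the 12 arrays, the probes most like those of 3 members were sought among 12798 probes of other genes that were well above background throughout. The closest to Hspa1a were 1110018J18Rik (Pearson r = 0.954), Fbln5 (r = 0.938) and Pard6a (r = 0.919). The closest to Hspb1 were Ptrh2, a mitochondrial peptidyl-tRNA hydrolase (r = 0.960), Sssca1 (r = 0.939) and Grpel1, the exchange factor of mitochondrial HSP70 (r = 0.929). The closest to Hspd1 were Rfk, riboflavin kinase (r = 0.976), Suz12, a Polycomb subunit (r = 0.972), and Phr1 (r = 0.969). These correlations describe arrays that share group, slide and signal level, with no test.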

How the data were processed

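Hypertrophic zone RNA of 12 mice was measured on single-colour Agilent arrays. The authors deposited, for each array, the Cy3 intensity of every spot and its local background from Agilent Feature Extraction 9.5.3, and a table of normalized log2 values. The deposited log2 values correlated with those made here at 0.99987 or more and served as an alternative. Here the mean and background intensities were corrected with normexp (offset 50), control and outlier spots were left out, and log2 values were quantile normalized and averaged per probe. Group means of all 12 arrays were fitted with limma 3.58.1 in R 4.3.3 with 8 residual degrees of freedom, and each mutant was compared with its own wildtype. The number of arrays limits the precision. The p-values rest on the spread between arrays of a group, each from 1 mouse, which also holds dissection, amplification and hybridization. They cannot set genotype apart from slide.

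The members and lists were chosen with earlier results of these data known. Genes outside the set are Hsf1, Hsf2, Hspa9a and at most 3 per list with the largest change among called genes. Of the listed genes, Hspbp1, Hscb and Bglap2 were not found under these names. The closest 3 genes were sought for Hspa1a, Hspb1 and Hspd1. Arrays of the same replicate number deviated together in Schmid and its wildtype (r = 0.306, 0.283 and 0.117 over probes well above background throughout, 0.193, 0.171 and 0.066 over all probes) and in the wildtype groups (0.505, 0.115 and 0.274, and 0.407, 0.046 and 0.190), and not in Cog and its wildtype (-0.209, 0.153 and -0.201 over probes well above background). Neither the labels nor the methods say what the number stands for. The fit was tested on simulated data.

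Probe positions are those of the array annotation (mm7), and genes and promoters those of RefSeq (GRCm38.p6), which were not converted. Probes were not aligned again, so their exons are not given. Alternatives were other background corrections and scalings, the deposited log2 values, a filter on dim probes, array weights, slide or replicate number as a block, a trend over array rows, a test against 2-fold, and leaving out each array.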

Additional observations from a re-analysis of the deposited data

Results flagged for a closer look

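The change in Schmid differed from the change in Cog by a test of the difference itself (limma, adjusted over all probes) at 6 probes of 5 genes. On the log2 scale the Schmid change exceeded the Cog change by 2.20 at the brightest Hspa1a probe and by 2.82 at the second. At the brightest probes of the others it did so by 1.86 for Hspa2, 2.01 for Hspa4, 2.09 for Hspb1 and 2.57 for Hspb8. The second probes of Hspa2 and Hspa4 were not called for the difference. For Hspb8 the wildtype groups differed by -1.84 as well, and Schmid and Cog levels themselves lay at means of 12.49 and 11.76. Groups of 3 arrays are too small for a search for single arrays that stand apart.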

How the results depend on the processing

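Of the Schmid results, 11 higher probes became 10 to 12 under other corrections, scalings, blocks and filters, and 8 to 11 with an array left out. Hsp110, Hspa1a, Hspa2, Hspa4, Hspb1 and Hspb8 stayed called at their brightest probe in all 12 of the latter fits, and Hspd1 did not. A test against a 2-fold change (limma treat) called 1 probe in Schmid, Hspb8 (adjusted p = 0.0267), and 0 for the difference between mutants and for the wildtypes. Lower probes in Schmid numbered 1 in place of 0 with the processed signal, quantile normalized or scaled to its 75th percentile, and with normexp values so scaled, and lower differences 1 with the quantile-normalized processed signal. With an array left out, probes with a larger change in Schmid than Cog numbered 3 to 7 and lower probes between wildtypes 0 to 1. Genes of the mitochondrial list higher in Schmid then numbered 4 to 7, a count that fell from 6 to 3 with all probes of a gene averaged. The wildtype call also dropped to 0 with only those groups fitted. In Cog the higher count among other HSP70 genes went from 1 to 0 with averaged probes. In all of these fits the Cog counts of members stayed at 0. The 75th percentile scaling moved the median of all probes by -0.40 in Schmid and 0.43 in Cog for the processed signal, and by -0.35 in Schmid for normexp values.

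Signs turned only at values that were not called, given here on the log2 scale. In Schmid, Hspa8 came to -0.0080 with the quantile-normalized processed signal, -0.26 with the scaled one and -0.051 against all 6 wildtypes, and Hspe1 to -0.021 with the scaled one. With scaled normexp values the Schmid changes of Hspa1a probe 3, Hspa4 probe 3 and Hspb1 probe 2 were -0.21, -0.32 and -0.43, and with array weights Hspb1 probe 2 was -0.064 (-0.14 to 0.23 with an array left out). In Cog, Hspa1a came to -0.047 and -0.056 with the quantile-normalized and scaled processed signal, -0.17 with array weights, -0.044 with a row trend removed, and -0.32 to 0.56 with an array left out. Hspb8 in Cog came to -0.021 and -0.038 with those signals, -0.022 with scaled normexp, -0.0033 with the deposited values, -0.047 with a slide block, and -0.23 to 0.19. Hspa8 in Cog came to -0.073 and -0.14 with the scaled processed and normexp values and -0.010 with averaged probes. Hspb1 in Cog came to -0.086 with the scaled processed signal, -0.077 with array weights, -0.051 with averaged probes, and -0.26 to 0.59. Hspd1 in Cog came to -0.16 and -0.072 with the scaled processed and normexp values and -0.092 to 0.61, and Hspa4 to 0.049 with array weights, 0.20 against all 6 wildtypes, 0.20 with averaged probes, and -0.41 to 0.077. The Hspa8 difference between mutants came to -0.19 and -0.18 with the processed signals, -0.19 with array weights, and -0.19 to 0.13. Hspe1 between wildtypes came to 0.048 with scaled normexp values and -0.14 to 0.23. The cause was not tested.

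With replicate number as a block, 11 probes were called higher in Schmid, 0 in Cog, 6 for the difference and 1 between wildtypes, the same counts as without it. Of the 3 Cog arrays 1, and of the 3 Schmid arrays 2, correlated best with the wildtype array of its own number, and so did 1 and 2 of their wildtype arrays with the mutant array. All 6 wildtype arrays as controls, and the leave-out fits of the mitochondrial list, were chosen after seeing the data. A fit of only the groups compared was not run for the difference, which needs all 4.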
